A study of Danio rerio with 6 samples.

Results

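The genes described here are the Notch receptors of the zebrafish and their Jagged and Delta ligands. With them stand the Fringe, Rbpj and Numb genes that act on the signal, and the Her, Hes and Hey repressors. The signal switches on many of these repressors, but not all. The genes were taken by gene symbol, and 45 of the 32057 gene IDs in the count table carried such a symbol. The choice of these symbols was made with earlier results of these data known. By role, 4 are receptors, 4 are Jagged and 4 are Delta ligands, 3 are Fringe genes, 3 are Rbpj genes, 2 are Numb genes, 15 are her genes, 7 are hes genes and 3 are hey genes. Their expression was compared between regenerated larval tail fins of 3 rapamycin libraries (replicates 4 to 6) and 3 control libraries (replicates 1 to 3). The rapamycin larvae, labelled as mtor inhibition, received 1 µM rapamycin from 2 days post fertilization (dpf). The control larvae, labelled as wild type, received the solvent DMSO. In both groups fins were amputated at 3 dpf and collected at 24 hours post amputation (hpa), with 50 fins pooled in each library. The study's methods name AB and transgenic lines without saying which of them gave these larvae, and it is not stated whether the pools came from separate clutches. The p-values below therefore measure the spread between these pools.

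Notch signalling works between touching cells. A Jagged or Delta ligand on a cell binds a Notch receptor on its neighbour, and ADAM10 and then γ-secretase cut the receptor. The freed intracellular part enters the nucleus, where it joins Rbpj and Mastermind and switches on many her, hes and hey genes. The encoded repressors keep cells from differentiating, often by holding down proneural genes. In the adult fin, Notch activity is known to keep blastema cells dividing, and in the neuromasts of the lateral line it limits how many cells become hair cells. Rapamycin blocks mTOR complex 1, a kinase complex that drives protein synthesis and growth, and the comparison asks which transcripts differ in regenerating fins when that complex is inhibited.

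The libraries held 52845527, 54162044 and 53893842 counts in rapamycin replicates 4 to 6, and 53963168, 53345118 and 49055607 in control replicates 1 to 3. Levels are given as CPM, which are counts scaled to a common library size by edgeR's TMM factors (0.901 to 1.14). No transcript lengths were used, so levels serve to compare libraries. Where genes are ranked by CPM, or said to make up most of a sum, the ranking is one of counts and not of transcripts. An epidermal and a matrix gene were high in all libraries, but no other tissue was sequenced, so they do not identify the fin. *krt5*, a keratin of basal epidermis, lay at 3390 to 3686 CPM in rapamycin and 2686 to 3390 CPM in control libraries. *col1a1a*, a fibrillar collagen, lay at 44427 to 51453 CPM in rapamycin and 30691 to 43605 CPM in control libraries. The rapamycin libraries lay close together, whereas control replicate 1 stood apart from control replicates 2 and 3. The median chi-square per gene between the counts of a pair of libraries was taken as their distance. Control replicate 1 lay at 17.5, 17.9 and 19.9 from rapamycin replicates 4 to 6, and at 23.3 and 29.1 from control replicates 2 and 3. Control replicates 2 and 3 lay at 12.7 from each other and at 27.6 to 30.8 from the rapamycin libraries. The distances among the rapamycin libraries were 5.9 to 7.31. Over 13354 tested genes with a known span, the Spearman rho between gene span and a gene's deviation from its mean was 0.296, 0.232 and 0.158 in rapamycin replicates 4 to 6, and 0.212, -0.338 and -0.283 in control replicates 1 to 3. Control replicate 1 thus had the sign of the rapamycin libraries, and the results that rest on it are given with and without it.

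Of the 45 members, 37 had enough counts to be tested and 8 did not. A gene was called changed at an adjusted p under 0.05 in edgeR's quasi-likelihood test, with p-values adjusted over all 19778 tested genes by Benjamini and Hochberg. Of the 37, 1 was called higher in rapamycin fins (2.7%), where 1.97% of all tested genes were, and 0 were called lower, where 3.27% of all tested genes were (5.24% in either direction). At an unadjusted p under 0.05 in edgeR, 3 members were higher and 5 were lower, and over all tested genes 10.1% and 13.3% were. The DESeq2 Wald test called 1 member higher and 2 lower (5.41%), against a background of 5.06% and 7.79%. The groups did not overlap in 15 members, nor in 30.7% of all tested genes. In 4 of these (10.8%) all rapamycin libraries lay above all control libraries (background 14.8%), and in 11 (29.7%) all rapamycin libraries lay below (background 15.9%). The median log2 fold change of rapamycin over control was 0.03 over the 37 members and 0.001 over all tested genes, and 18 members lay below 0 and 19 above (background 49.9% and 50.1%). A log2 fold change of -1 or less was found in 8 of the 37 members (21.6%) and in 8.95% of all tested genes, and one of 1 or more in 1 member (2.7%) and in 6.54%. None of these 9 members passed the test. Scaling the libraries another way moved the median of all tested genes to -0.024 at most. Because a library pools whole fins, fewer cells of a type and less RNA per cell cannot be told apart.

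**Figure D1:**
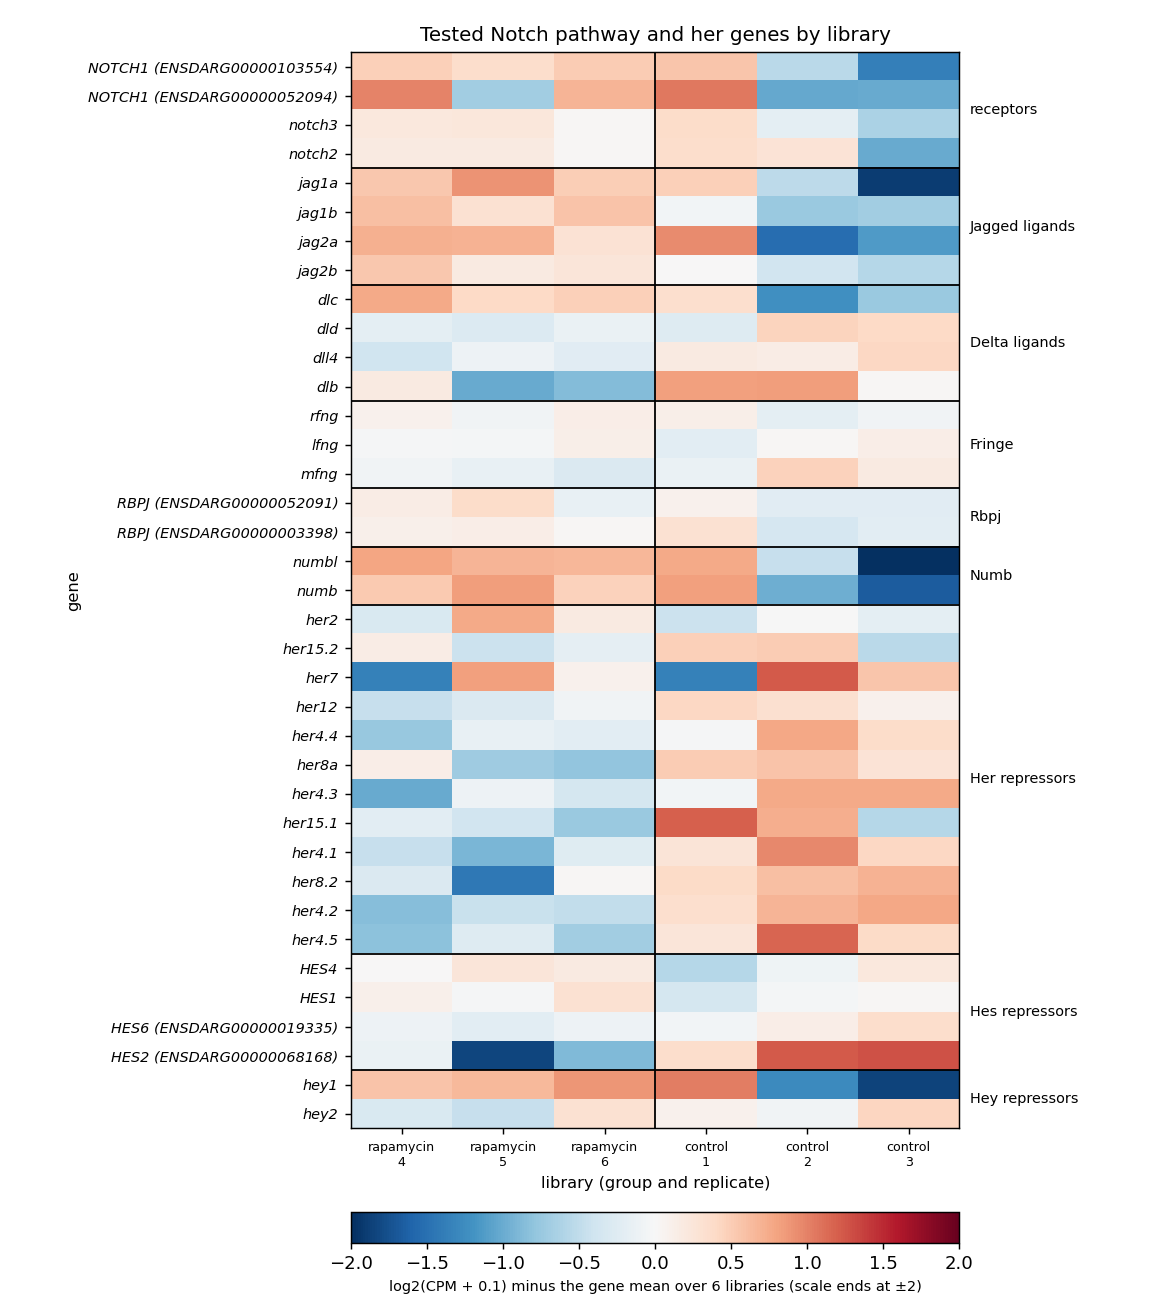
Level of each tested member in each library, as log2(CPM + 0.1) minus that gene's mean over the 6 libraries, with rapamycin libraries on the left and control libraries on the right. Genes are grouped by role. Colours end at ±2. The 4 jag genes are above their mean in rapamycin libraries, the her4 genes are below it, and control replicate 1 is the highest control in the jag, receptor, Numb and *hey1* genes.

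The only member that edgeR called with all 6 libraries was the Jagged ligand *jag1b*, which was higher in rapamycin fins. This was 2.7% of the tested members, near the background of 1.97%. In rapamycin replicates 4 to 6 *jag1b*, a ligand known in zebrafish for patterning the dorsal skeleton of the face, stood at 94.0, 75.8 and 91.8 CPM, against 59.4, 37.0 and 38.2 CPM in control replicates 1 to 3. Every rapamycin library lay above every control library. The means were 87.2 ± 9.95 CPM in rapamycin fins and 44.9 ± 12.6 CPM in control fins (SD, n = 3 each), with a log2 fold change of 0.96 (SE 0.22, adjusted p = 0.0399). DESeq2 gave an adjusted p of 0.00187. The call was lost when any library other than control replicate 1 was left out (adjusted p 0.0848 to 0.170, log2 fold change 0.84 to 1.05) and when libraries were scaled by their size only (adjusted p = 0.0933). Without control replicate 1, the log2 fold change was 1.20 and the adjusted p 0.000664. With the trend in gene span removed it was 0.81 and the adjusted p 0.0287.

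The other 3 Jagged genes had fold changes of the same sign and did not pass the test. *jag2b* stood at 15.6, 12.2 and 12.7 CPM in rapamycin libraries and at 10.8, 8.17 and 7.18 CPM in control libraries. These groups did not overlap, and the log2 fold change was 0.63 (SE 0.24, adjusted p = 0.151). *jag1a* measured 3.12, 4.05 and 3.04 CPM in rapamycin libraries and 2.98, 1.44 and 0.498 CPM in control libraries, for a log2 fold change of 1.04 (SE 0.55, adjusted p = 0.290). Its groups were separated by a narrow margin, since control replicate 1 lay just under the lowest rapamycin library. In *jag2a*, at 5.20, 5.16 and 3.85 CPM against 6.16, 1.03 and 1.38 CPM, control replicate 1 exceeded every rapamycin library, and the log2 fold change was 0.72 (SE 0.61, adjusted p = 0.506). Summed over the 4 genes, the Jagged level was 118, 97.2 and 111 CPM in rapamycin and 79.3, 47.6 and 47.3 CPM in control libraries. Most of it was *jag1b*. All 4 log2 fold changes were above 0 in every alternative that was run, and their median was 0.84.

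The Delta ligands did not move as a group, and none of the 4 passed the test. *dld*, which with *dlc* is known for the somite clock, stood at 92.2, 86.6 and 95.5 CPM in rapamycin libraries and at 88.0, 144 and 139 CPM in control libraries. Control replicate 1 lay within the rapamycin range and control replicates 2 and 3 well above it, and the log2 fold change was -0.43 (SE 0.21, adjusted p = 0.246). *dll4*, the ligand of sprouting endothelial tip cells, measured 4.37, 5.45 and 4.95 CPM in rapamycin and 6.63, 6.44 and 7.76 CPM in control libraries, with a log2 fold change of -0.49 (SE 0.25, adjusted p = 0.267). These ranges did not overlap. *dlb*, a ligand expressed in early neurons, measured 3.30, 1.40 and 1.56 CPM in rapamycin and 5.18, 5.28 and 2.97 CPM in control libraries, and its log2 fold change was -1.10 (SE 0.42, adjusted p = 0.157). Here rapamycin replicate 4 exceeded control replicate 3. *dlc* had the opposite sign, at 6.57, 5.12 and 5.41 CPM in rapamycin and 4.87, 1.58 and 2.26 CPM in control libraries, with no overlap and a log2 fold change of 0.97 (SE 0.42, adjusted p = 0.200). The Delta gene *dla* is not analysed here.

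**Figure D2:**
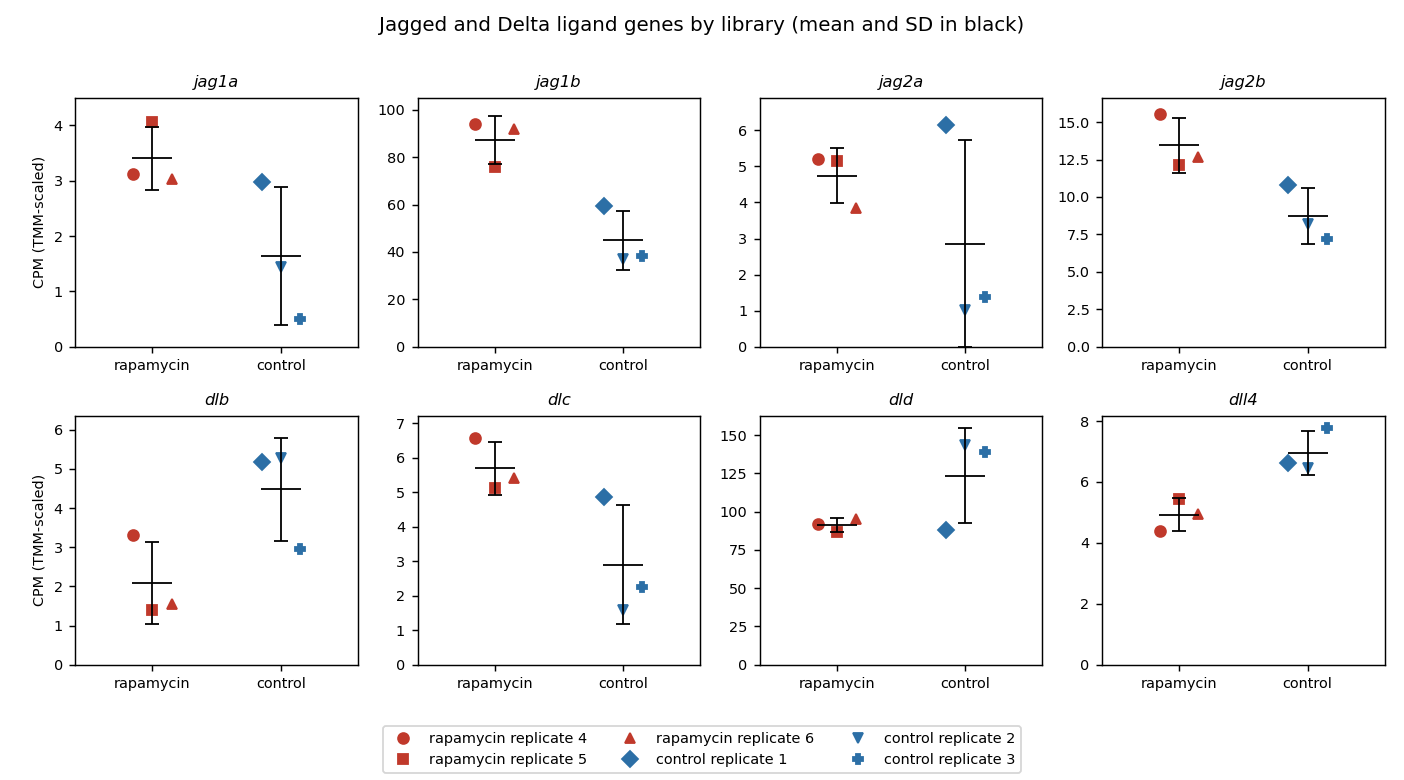
CPM of the 4 Jagged genes (top row) and 4 Delta genes (bottom row) in each library, one marker per library, with the mean and SD of the 3 libraries of each group in black. The vertical axes start at 0. *jag1b*, *jag1a*, *jag2b* and *dlc* lie higher in all rapamycin libraries than in all control libraries, *dll4* lies lower, and control replicate 1 is the highest control in each Jagged gene.

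In the 4 receptor genes the rapamycin libraries lay within the range of the control libraries, and none was called. *notch2* stood at 23.6, 23.4 and 21.2 CPM in rapamycin and at 26.5, 25.0 and 10.3 CPM in control libraries, for a log2 fold change of 0.14 (SE 0.32, adjusted p = 0.821). *notch3*, a receptor of pericytes and smooth muscle among other cells, measured 12.5, 12.7 and 10.99 CPM in rapamycin and 13.9, 9.41 and 6.95 CPM in control libraries, for a log2 fold change of 0.25 (SE 0.27, adjusted p = 0.614). In both genes control replicate 1 was the highest of all 6 libraries. The name NOTCH1 stands for 2 further gene IDs. The first, ENSDARG00000103554, measured 11.5, 10.5 and 11.8 CPM in rapamycin and 12.1, 5.65 and 3.15 CPM in control libraries (log2 fold change 0.69, adjusted p = 0.358). The second, ENSDARG00000052094, measured 4.36, 1.29 and 3.51 CPM in rapamycin and 4.59, 1.01 and 1.02 CPM in control libraries (log2 fold change 0.46, adjusted p = 0.708).

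No Fringe, Rbpj or Numb gene passed the test with all 6 libraries. *lfng*, a glycosyltransferase that alters which ligands a receptor answers to, had 185, 183 and 205 CPM in rapamycin and 162, 192 and 205 CPM in control libraries. *rfng*, of the same family, had 20.4, 18.4 and 21.2 CPM in rapamycin and 20.9, 16.7 and 18.2 CPM in control libraries. Their log2 fold changes were 0.03 (SE 0.17, adjusted p = 0.921) and 0.10 (SE 0.19, adjusted p = 0.770), and in both genes the ranges overlapped. *mfng*, the last Fringe gene, had a log2 fold change of -0.36 (SE 0.22, adjusted p = 0.357).

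In all, 2 tested gene IDs are named RBPJ, after the DNA-binding partner of the receptor's intracellular part. ENSDARG00000003398 stood at 26.9, 27.5 and 25.6 CPM in rapamycin and at 31.0, 19.8 and 21.7 CPM in control libraries, with a log2 fold change of 0.14 (SE 0.21, adjusted p = 0.720). ENSDARG00000052091 stood at 25.4, 29.5 and 20.6 CPM in rapamycin and at 24.3, 19.6 and 19.5 CPM in control libraries, with a log2 fold change of 0.25 (SE 0.21, adjusted p = 0.496). *numb*, an endocytic adaptor that restrains Notch, stood at 9.22, 11.5 and 8.81 CPM in rapamycin and at 11.3, 3.19 and 1.95 CPM in control libraries (log2 fold change 0.84, SE 0.55, adjusted p = 0.395). *numbl*, its relative, stood at 6.27, 5.84 and 5.73 CPM in rapamycin and at 6.16, 2.59 and 0.589 CPM in control libraries (log2 fold change 0.93, SE 0.63, adjusted p = 0.410). In both Numb genes control replicate 1 lay within the rapamycin range, and control replicates 2 and 3 lay well below it.

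Among the members named her, values were lower in rapamycin fins in nearly every tested gene, but edgeR called 0 of 12. No member carries the name her6 or her9. HES1 and HES4, counted here with the hes genes, lay above 0 (log2 fold change 0.25 and 0.27). The count of 12 thus rests on gene names, and any her gene listed under another name is not in it. The other 2 tested hes genes lay below 0. Of the 12, 11 had a log2 fold change below 0 (background 49.9%), with a median of -1.02. In 8, all rapamycin libraries lay below all control libraries (background 15.9%). These 8 include *her12* and the 5 her4 genes, neighbours whose values cannot be taken as independent of each other. At an unadjusted p under 0.05 in edgeR, 4 of the 12 were lower and 0 higher (background 13.3% and 10.1%). DESeq2 called 2 lower (background 7.79%). Under every other scaling the number below 0 was 11, and it was 10 when control replicate 2 or rapamycin replicate 4 was left out, since *her7* changed sign there. With the trend in gene span removed 11 were still below 0 and 0 were called, but several values were over 1.5 times smaller: -0.70 in *her4.1* (adjusted p = 0.255), -0.71 in *her4.3*, -0.44 in *her4.4*, -0.26 in *her12*, -0.01 in *her15.2* and -0.06 in *her7*. There *her4.2* was at -1.07 (adjusted p = 0.0670) and *her4.5* at -0.89 (adjusted p = 0.128).

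The her4 genes, which are the zebrafish relatives of mammalian Hes5 and classical readouts of Notch activity, carried most of these values. *her4.2* measured 1.41, 1.92 and 1.84 CPM in rapamycin libraries (75, 104 and 97 counts) and 3.34, 4.28 and 4.57 CPM in control libraries (205, 225 and 202 counts). Its log2 fold change was -1.24 (SE 0.32), with an adjusted p of 0.0558 in edgeR and 0.0110 in DESeq2. *her4.5* measured 1.596, 2.395 and 1.75 CPM in rapamycin and 3.42, 6.61 and 3.78 CPM in control libraries, for a log2 fold change of -1.27 (SE 0.37), with an adjusted p of 0.0779 in edgeR and 0.0217 in DESeq2. In both genes the highest rapamycin library lay well below the lowest control library.

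*her4.1* measured 1.46, 1.05 and 1.73 CPM in rapamycin and 2.48, 4.09 and 2.78 CPM in control libraries, with a log2 fold change of -1.14 (SE 0.37, adjusted p = 0.105). *her4.3* measured 0.432, 0.903 and 0.740 CPM in rapamycin and 0.928, 1.71 and 1.72 CPM in control libraries, with a log2 fold change of -1.07 (SE 0.51, adjusted p = 0.244). *her4.4*, at -0.81 (SE 0.43, adjusted p = 0.288), had the least negative value of the 5. None of the 5 overlapped between the groups. Their summed level was 5.63, 7.44 and 7.17 CPM in rapamycin libraries (300, 404 and 378 counts) and 11.45, 19.01 and 14.58 CPM in control libraries (703, 1000 and 644 counts). In the RefSeq annotation of GRCz12tu, *her12*, *her4.2*, *her4.1*, *her4.3*, *her4.4* and *her4.5* follow one another with 0 protein-coding genes between them, and the spans of *her4.2* and *her4.1* overlap. Reads from the near-identical her4 copies may have been split or shared in counting. The values of single copies are thus uncertain and cannot be taken as independent of each other. *her12* itself stood at 1.11, 1.25 and 1.48 CPM in rapamycin and at 2.10, 1.96 and 1.65 CPM in control libraries (log2 fold change -0.57, SE 0.36, adjusted p = 0.375).

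A second row of neighbours, *her2*, *her15.1* and *her15.2*, was less uniform. *her15.1*, another Hes5 relative, measured 3.25, 2.87 and 2.24 CPM in rapamycin and 8.84, 6.31 and 2.51 CPM in control libraries, for a log2 fold change of -1.08 (SE 0.44, adjusted p = 0.177). Control replicate 3 lay among the rapamycin values, and without it the log2 fold change was -1.44 and the adjusted p 0.0428. Control replicate 1 was the highest library, and without it the log2 fold change was -0.67 and the adjusted p 0.248. *her15.2* measured 3.19, 2.10 and 2.51 CPM in rapamycin and 4.02, 4.12 and 1.95 CPM in control libraries, with overlap between the groups (log2 fold change -0.37, SE 0.38, adjusted p = 0.585). The pair *her15.1* and *her15.2* is also a set of near copies, and summed to 6.44, 4.97 and 4.74 CPM in rapamycin and to 12.9, 10.4 and 4.46 CPM in control libraries. *her2* was the only tested member named her with a value above 0. It stood at 0.432, 1.01 and 0.645 CPM in rapamycin and 0.391, 0.551 and 0.475 CPM in control libraries (log2 fold change 0.56, SE 0.65, adjusted p = 0.642).

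The other tested her genes had few counts, with at most 63 in any library. A floor of 3 counts in a library stands for 0.0489 to 0.0679 CPM. *her8.2* measured 0.488, 0.166 and 0.626 CPM in rapamycin and 0.831, 0.988 and 1.06 CPM in control libraries, with a log2 fold change of -1.17 (SE 0.66, adjusted p = 0.326). *her8a* measured 0.770, 0.387 and 0.361 CPM in rapamycin and 1.03, 1.08 and 0.860 CPM in control libraries, with a log2 fold change of -0.97 (SE 0.59, adjusted p = 0.353). Neither overlapped between the groups. *her7*, an oscillator of the somite clock, was at 0, 0.350 and 0.171 CPM in rapamycin and at 0, 0.494 and 0.272 CPM in control libraries, too low for a direction (log2 fold change -0.54, SE 1.58, adjusted p = 0.861). Over the 15 members named her the summed level was 14.87, 15.72 and 15.201 CPM in rapamycin libraries and 28.7, 35.1 and 23.6 CPM in control libraries. HES1 and HES4 are not in this sum, which rests on gene names. Over the 7 hes genes, which include both, the sum was 132, 140 and 150 CPM in rapamycin libraries. It was 95.7, 126 and 145 CPM in control libraries, with overlap.

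**Figure D3:**
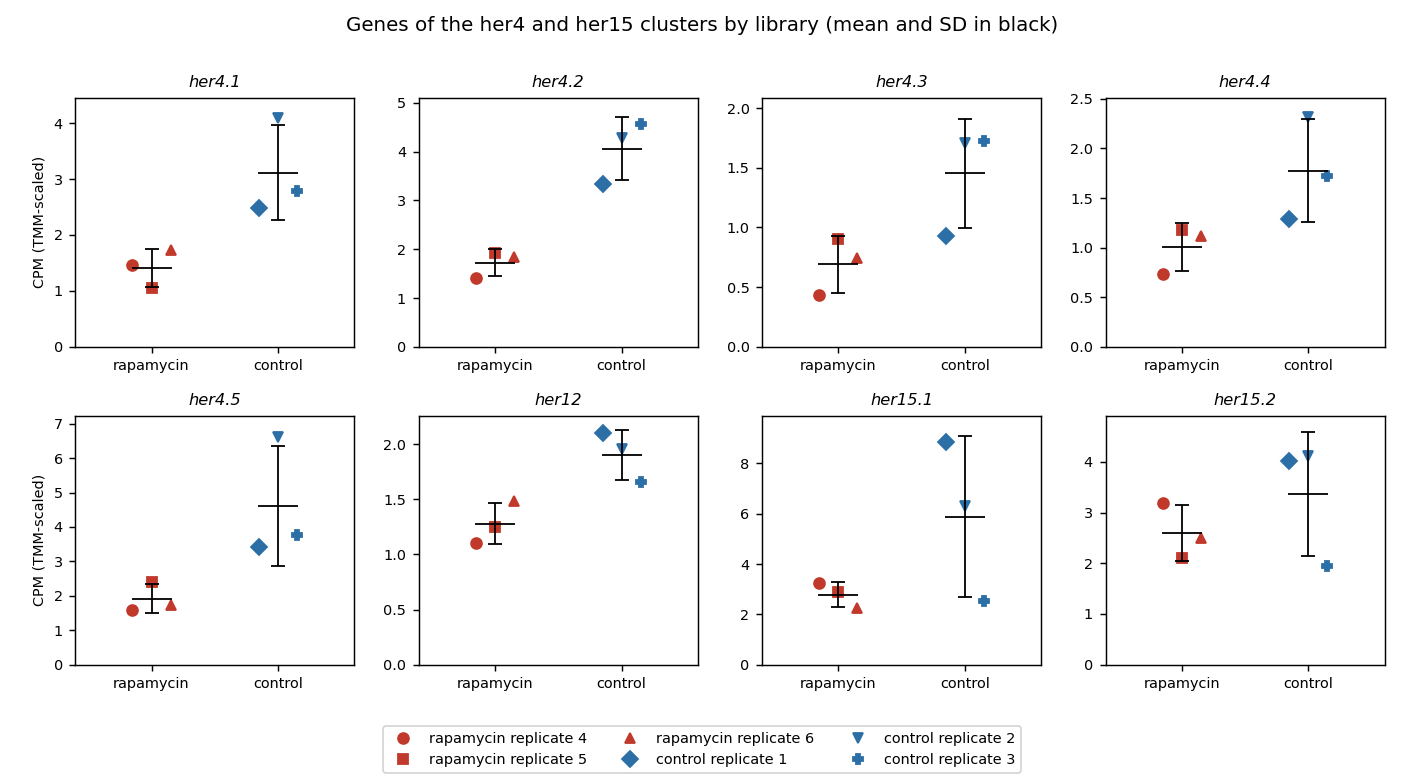
CPM of 8 her genes of both clusters in each library, one marker per library, with the mean and SD of the 3 libraries of each group in black and vertical axes from 0. All rapamycin libraries lie below all control libraries in the 5 her4 genes and *her12*. In *her15.1* and *her15.2* control replicate 3 is among or below the rapamycin libraries.

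Lists of markers and of cell cycle genes were set beside the her values, of which edgeR called 0. The lists were chosen with earlier results of these data known. Over all tested genes edgeR called 3.27% lower and 1.97% higher, and 49.9% lay below 0. Of 18 tested lateral line and hair cell markers, 5 fell and 0 rose, with a median log2 fold change of -1.11 and 16 of the 18 below 0. Summed over the 19 gene IDs of that list, the level was 460, 435 and 348 CPM in rapamycin and 1547, 1375 and 996 CPM in control libraries. Most of that sum came from *pvalb8* and *s100t*. The level of *s100t* was 161, 166 and 125 CPM in rapamycin and 544, 544 and 335 CPM in control libraries. None of the 19 was at 0 in all libraries. *pvalb8*, a calcium-binding protein of hair cells, stood at 157, 153 and 107 CPM in rapamycin and at 715, 642 and 501 CPM in control libraries (log2 fold change -2.16, adjusted p = 0.00278), and *pou4f3*, a transcription factor of hair cells, had a log2 fold change of -1.86 (adjusted p = 0.0254). Of 11 tested neuron and glia markers, 2 fell (*sncb* and ISL1) and 0 rose, with a median of -0.83, and the sum over 16 gene IDs was 17.4, 12.6 and 16.9 CPM in rapamycin and 31.1, 39.0 and 29.7 CPM in control libraries. Of these, 1 gene ID was at 0 in all libraries. Of 24 tested G2/M genes, 13 fell and 0 rose, and their sum was 410, 335 and 295 CPM in rapamycin and 627, 788 and 710 CPM in control libraries. The rapamycin and control libraries did not overlap in any of these 3 sums, nor in some of the other marker sums given below. The part of these sums in the her values was not tested.

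Epidermis markers lay the other way. Of 12 tested, 2 rose (*krt92* and *cdh1*) and 0 fell, and the sum over 13 gene IDs was 43736, 44286 and 51622 CPM in rapamycin and 35657, 39655 and 48449 CPM in control libraries. Most of that sum was *krt4*, at 32925, 32391 and 38863 CPM in rapamycin and 27035, 30094 and 37868 CPM in control libraries. The epidermis sums overlapped between the groups, and 1 of the 13 was at 0 in all libraries. The part of epidermal RNA in the Jagged values was not tested. In the mesenchyme and blastema list 1 of 17 fell and 0 rose, and in the endothelium list, whose cells are known to use *dll4* and *hey2*, 0 of 12 were called by edgeR. At an unadjusted p under 0.05 edgeR had 3 endothelium markers lower and 0 higher, and DESeq2 called 3 lower. In the mesenchyme and blastema list 4 were lower and 2 higher at that p, and DESeq2 called 2 lower and 1 higher. Over all tested genes 13.3% were lower and 10.1% higher at that p, and DESeq2 called 7.79% lower and 5.06% higher. The notochord and muscle list had 0 of 12 called by edgeR, with 3 lower and 0 higher at an unadjusted p under 0.05 and 1 lower by DESeq2. Of the macrophage and neutrophil markers 1 rose and 2 fell of 15, and of the pigment cell and blood markers 3 fell and 0 rose of 16. In summed CPM the endothelium list stood at 61.8, 57.6 and 56.2 in rapamycin and at 70.2, 78.6 and 65.5 in control libraries. The pigment cell and blood list stood at 233, 180 and 173 in rapamycin and 321, 344 and 292 in control libraries. The macrophage and neutrophil list was higher, at 838, 977 and 745 in rapamycin and 483, 729 and 646 in control libraries. None of these sums overlapped between the groups, whereas the mesenchyme and notochord sums did.

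**Figure D4:**
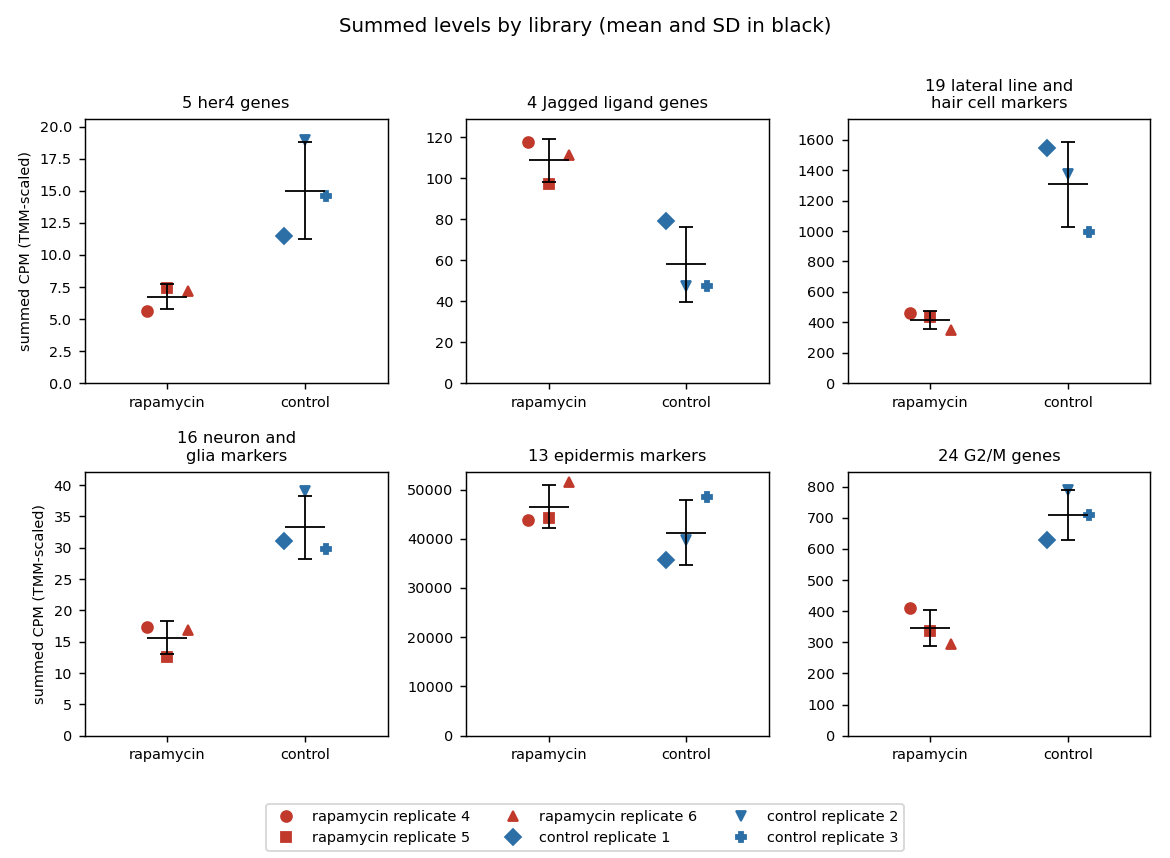
Summed CPM in each library of the 5 her4 genes, the 4 Jagged genes, lateral line and hair cell markers, neuron and glia markers, epidermis markers and G2/M genes, with the mean and SD of the 3 libraries of each group in black. The her4 sum (5.63 to 7.44 CPM in rapamycin, 11.45 to 19.01 CPM in control), the hair cell, neuron and G2/M sums are lower in all rapamycin libraries than in all control libraries, and the Jagged sum is higher.

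Of the 4 tested hes genes, 2 lay above 0 and 2 below, and edgeR and DESeq2 each called 0, with 0 at an unadjusted p under 0.05 in edgeR. HES1, a widely expressed repressor and Notch target, measured 50.7, 46.5 and 58.9 CPM in rapamycin and 37.0, 46.0 and 48.2 CPM in control libraries, with overlap (log2 fold change 0.25, SE 0.18, adjusted p = 0.440). HES4, a related repressor, measured 71.5, 84.4 and 81.0 CPM in rapamycin and 47.9, 67.3 and 81.99 CPM in control libraries, also with overlap (log2 fold change 0.27, SE 0.21, adjusted p = 0.486). These 2 and the other names in capitals are printed as the table gives them. HES6 (ENSDARG00000019335), a family member that in mammals counteracts Hes1, measured 10.045, 9.25 and 9.98 CPM in rapamycin and 10.4, 11.8 and 13.7 CPM in control libraries, with a log2 fold change of -0.29 (SE 0.21, adjusted p = 0.434). Its groups did not overlap. HES2 (ENSDARG00000068168) had the most negative value of all tested members, with 12, 0 and 5 counts in rapamycin and 22, 39 and 34 counts in control libraries. At 0.225, 0 and 0.0949 CPM against 0.358, 0.741 and 0.770 CPM, its log2 fold change was -2.52 with an SE of 1.16 (adjusted p = 0.229).

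Both tested hey genes overlapped between the groups. *hey1*, a repressor downstream of Notch, stood at 10.2, 10.7 and 12.6 CPM in rapamycin and at 13.9, 2.78 and 1.81 CPM in control libraries, for a log2 fold change of 0.85 (SE 0.64, adjusted p = 0.455). Its highest control library was 7.70 times its lowest, against 1.23 times among rapamycin libraries. *hey2*, which is known for artery formation, stood at 0.713, 0.626 and 1.14 CPM in rapamycin and at 0.961, 0.855 and 1.25 CPM in control libraries (log2 fold change -0.30, SE 0.51, adjusted p = 0.752).

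The 8 members that were not tested had few counts or none. *rbpjl*, a relative of Rbpj, had 10, 7 and 4 counts in rapamycin and 8, 8 and 3 in control libraries. *her1*, the partner and neighbour of *her7*, had 0, 7 and 0 counts in rapamycin and 0, 17 and 9 in control libraries. The neighbours *her11* and *her5*, repressors of the boundary between midbrain and hindbrain, had 0 counts in every library but control replicate 2, with 4 and 7 counts there, and *heyl* had 3 counts in that library alone. The second HES6 (ENSDARG00000007097) had 10 counts in rapamycin replicate 5 alone. HES3 and the second HES2 (ENSDARG00000074897) were at 0 in all 6 libraries, which allows up to 3 counts in each.

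The number of ligands, receptors and adaptors that passed the test depended on control replicate 1. It was the highest control in 17 of the 37 tested members (45.9%, and 39.5% over all tested genes). These 17 were all 4 Jagged genes, all 4 receptors, both Numb genes, both RBPJ genes, *hey1*, *dlc*, *rfng*, *her12* and *her15.1*. Against the mean of control replicates 2 and 3, the rapamycin mean was 4.87 times as high in *hey1*, 3.94 times in *jag2a*, 3.83 times in *numb* and 3.75 times in *numbl*, and control replicate 1 was 6.08, 5.11, 4.404 and 3.88 times as high in the same genes, in that order. It was the lowest control in 15 members (40.5%, and 38.1% over all tested genes), among them *dld* and the 5 her4 genes.

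Without control replicate 1, edgeR called 9 members higher (24.3%) and 4 lower (10.8%), where 15.5% and 15.6% of 20220 tested genes were called. The higher members were *jag1b*, *jag1a* (log2 fold change 1.79, adjusted p = 0.0220), *jag2a* (1.97, adjusted p = 0.00312), *jag2b* (0.80, adjusted p = 0.0176), *dlc* (1.56, adjusted p = 0.00577), *hey1* (2.27, adjusted p = 0.000815), *numb* (1.92, adjusted p = 0.00206), *numbl* (1.89, adjusted p = 0.0259) and NOTCH1 ENSDARG00000103554 (1.35, adjusted p = 0.00710). All 4 Jagged genes were thus called in that fit. The lower members were *dld* (-0.64, adjusted p = 0.00293), *her4.1* (-1.29, adjusted p = 0.0274), *her4.2* (-1.37, adjusted p = 0.00961) and *her4.5* (-1.45, adjusted p = 0.0140). Leaving out any other single library gave 0 higher and 0 or 1 lower. The signs of the Jagged, Numb and her4 values were the same with and without control replicate 1, and their sizes were not.

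**Figure D5:**
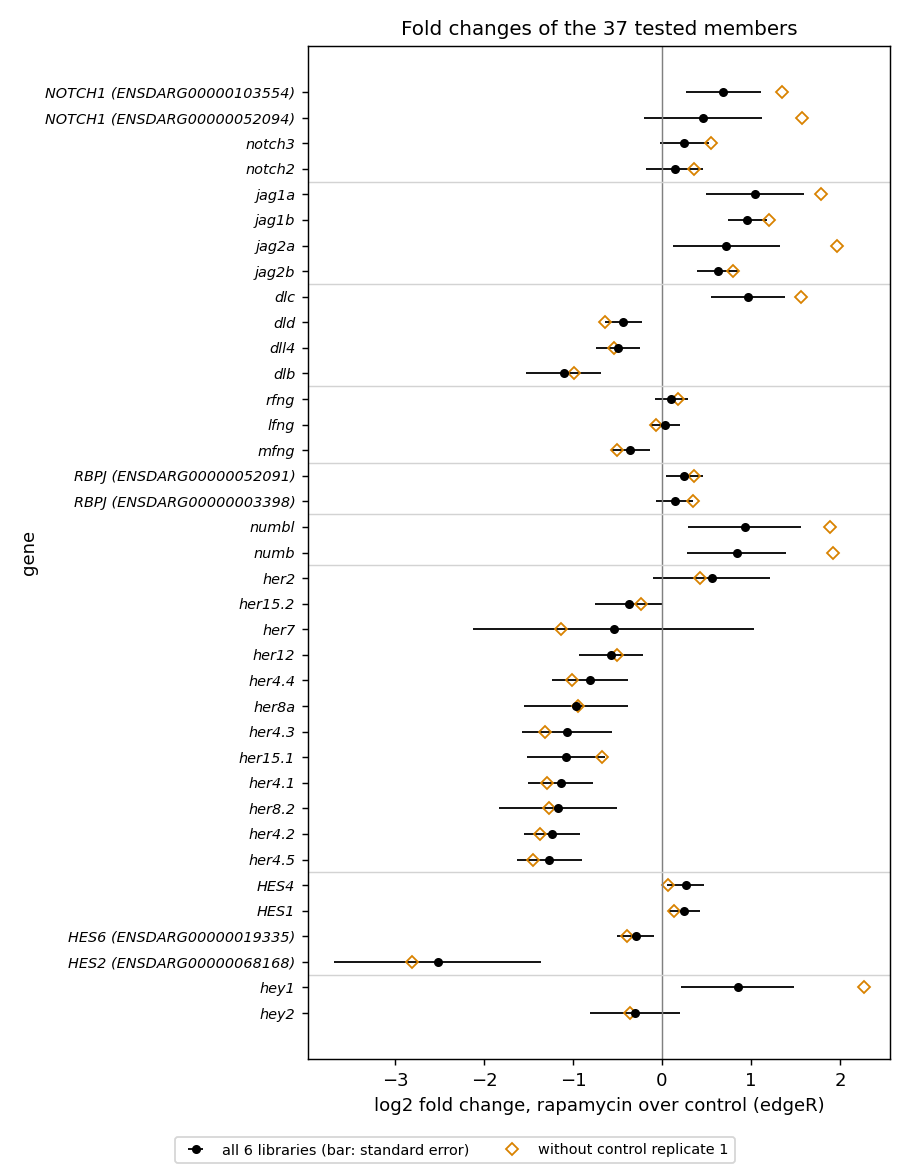
Log2 fold change of rapamycin over control for the 37 tested members, grouped by role, from all 6 libraries (black, bar for the standard error) and without control replicate 1 (open orange diamonds). The Jagged and Numb genes and *hey1* lie further above 0 without control replicate 1 (*hey1* at 2.27 and 0.85 with it), and the her4 genes lie below 0 in both.

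Around these members, 97 further gene IDs of the pathway were listed by name, with earlier results of these data known, and 87 were tested. Of the 87, 2 rose, 1 fell and 84 did not pass, where 1.97% of all tested genes rose and 3.27% fell. Over all tested genes the median log2 fold change was 0.001, and over these 87 it was 0.22. Without control replicate 1, 30 of them were called higher and 8 lower, and without any other single library 0 or 1 higher and 0 lower. In the fit without control replicate 1, 15.5% of all tested genes were called higher and 15.6% lower. Among 17 genes of receptor cleavage and glycosylation, FURIN (ENSDARG00000070971), a protease that cuts the receptor on its way to the surface, rose. It stood at 27.6, 36.6 and 30.9 CPM in rapamycin and at 17.0, 19.5 and 18.9 CPM in control libraries (log2 fold change 0.78, adjusted p = 0.0465). *poglut1*, which adds O-glucose to the receptor, fell to 20.7, 18.9 and 16.04 CPM in rapamycin libraries, against 26.7, 43.3 and 39.2 CPM in control libraries (log2 fold change -0.97, adjusted p = 0.0409). The groups did not overlap in either gene. *adam10b*, which encodes the protease that makes the first ligand-dependent cut, had a log2 fold change of 0.87 (adjusted p = 0.0520). Its relative *adam10a*, which had more counts, had one of 0.46 (adjusted p = 0.162).

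Among 30 tested nuclear co-factors, TLE3 (ENSDARG00000002787), a Groucho-type co-repressor that works with Her proteins, rose and 0 fell. It stood at 142, 125 and 140 CPM in rapamycin and at 85.0, 51.4 and 59.0 CPM in control libraries (log2 fold change 1.06, adjusted p = 0.0254). The groups did not overlap. The second TLE3 ID, ENSDARG00000069006, had a log2 fold change of 0.78 (adjusted p = 0.214), and its groups overlapped.

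Of 22 tested genes of ligand and receptor endocytosis, edgeR called 0. Of these, 19 lay above 0 with a median of 0.58, 4 were higher and 0 lower at an unadjusted p under 0.05 in edgeR, and DESeq2 called 2 higher and 0 lower. Over all tested genes 50.1% lay above 0, and 10.1% were higher and 13.3% lower at that p. DESeq2 called 5.06% higher and 7.79% lower. The 22 genes summed to 421, 389 and 394 CPM in rapamycin and to 403, 255 and 244 CPM in control libraries. Control replicate 1 thus lay within the rapamycin range. The smallest adjusted p-values belonged to *neurl1b* and *neurl1ab*, relatives of the fly ubiquitin ligase Neuralized, which acts on Delta, with log2 fold changes of 1.14 (adjusted p = 0.0648) and 0.76 (adjusted p = 0.0984). In 9 tested genes of other ligands and feedback, edgeR called 0, with 1 higher and 3 lower at an unadjusted p under 0.05, and DESeq2 called 1 higher and 2 lower. *egfl7*, a secreted endothelial protein that is also in the endothelium list, had a log2 fold change of -0.93 (adjusted p = 0.0651), and CCN4, a matrix protein, one of 2.36 (adjusted p = 0.0752).

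Proneural genes are held down by Her repressors in the developing nervous system. The list used for them also held *sox2*, *olig2* and INSM1, which are neural genes but not proneural in this sense. Of the 9 tested genes of that list, edgeR and DESeq2 each called 0, with 0 higher and 1 lower at an unadjusted p under 0.05 in edgeR. All 9 lay below 0 (background 49.9%), with a median of -0.66. Over all tested genes 10.1% were higher and 13.3% lower at that p. *ascl1b* had a log2 fold change of -1.41 (adjusted p = 0.113). ATOH1, which specifies hair cells and also stands in the hair cell list, measured 7.44, 5.80 and 4.38 CPM in rapamycin and 11.8, 9.79 and 6.23 CPM in control libraries, with overlap (log2 fold change -0.66, adjusted p = 0.243).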

How the data were processed

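Whole-number read counts were deposited by the authors for 32057 Ensembl zebrafish gene IDs in 6 libraries, with no normalization, and 0 columns lacked a sample. The cDNA was made from total RNA with SMARTScribe reverse transcriptase, fragmented and amplified, and both ends of each fragment were sequenced. The submitters' processing notes name the mouse build mm10, although every ID is a zebrafish ID. For the aligner, counting tool, strand setting and annotation: not given in the sources used here. A name table gave symbols for 28988 IDs. Names in capitals that stand for 1 ID and are listed for zebrafish in RefSeq were printed in lower case. RefSeq GRCz12tu served only for names, neighbours and gene spans.

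The test was that of edgeR 4.0.16 in R 4.3.3 (filterByExpr, TMM, robust quasi-likelihood test, no covariate). It was also run on simulated counts. These held no outlying library and no gene span trend, so that run cannot show how the test behaves with either. Adjusted p-values follow Benjamini and Hochberg over 19778 genes in the main fit and are from edgeR unless DESeq2 is named. Each alternative was adjusted over its own tested genes. These were 13354 with the gene span trend removed and 20220 without control replicate 1. Standard errors (SE) were obtained as the absolute fold change on the log2 scale over the root of F. Alternatives were DESeq2 1.42.0 (its test, and its size factors), limma-voom 3.58.1, upper quartile scaling, library size only, no low-count filter, a minimum of 10 counts in each library, a size threshold of 1 on the log2 scale added to the adjusted p, unadjusted p-values with that size threshold, removal of the gene span trend, and leaving out each library. The fit with the gene span trend removed held only tested genes with a known span, which were 67.5% of the tested genes and 29 of the 37 tested members. It held no Rbpj or hes gene and only 2 receptors. Floors cover counting error only.

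The members and the other lists were chosen with earlier results of these data known. Members were given in full where called, past a log2 fold change of 1 in either direction, or among the 2 with the highest mean CPM of their role, and others were added after their values were seen. The labels name no sequencing batch or date.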

Additional observations from a re-analysis of the deposited data

How the results depend on the processing

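No paired analysis was possible because the groups share no replicate numbers (4 to 6 in rapamycin, 1 to 3 in control). The count of members called higher, 1 as reported, was 0 with library size only, 0 with a size threshold of 1 on the log2 scale added, 0 with an unadjusted p and that size threshold, and 0 to 9 when single libraries were left out. The count called lower, 0 as reported (5 at an unadjusted p under 0.05 in edgeR), was 2 with DESeq2, 1 with a minimum of 10 counts in each library, 5 with an unadjusted p and that size threshold, and 0 to 4 when single libraries were left out. In the other pathway genes, 2 higher became 1 with DESeq2 size factors, 1 with library size only, 9 with DESeq2, 5 with limma-voom, 4 with that minimum, 1 with the size threshold, and 0 to 30 without single libraries. With the span trend removed there were 2 higher as well, but these were other genes. The called FURIN and TLE3 IDs share their names with other IDs, so they had no known span and were not in that fit. There, 1 lower became 3 with library size only, 5 with DESeq2, 2 with the span trend removed, 0 with the size threshold, and 0 to 8 without single libraries. Over all genes, 390 higher became 1000 with DESeq2, 773 with an unadjusted p and the size threshold, and 47 to 3128 without single libraries, and 647 lower became 1539, 1102 and 65 to 3151. All upper ends are without control replicate 1. The cause of these changes was not tested. Of the values of single members under these alternatives, 479 kept their direction and their side of the threshold, 16 gained a call, 6 lost one, 6 others (in *lfng*, *her7* and *notch2*, all uncalled) moved across 0, and 0 called values changed sign. With 3 libraries a group, log2 fold changes of low genes such as *her7* (SE 1.58) and HES2 (SE 1.16) are not resolved.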
